A study of Mus musculus with 13 samples.

Results

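Fatty acid oxidation in the mouse lung was followed with 10 genes, chosen by symbol from the 32544 gene symbols of the count table: 3 transcriptional regulators (Ppargc1a, Ppargc1b and Ppara) and 7 enzymes (Cpt1a, Cpt2, Acadm, Acadl, Acadvl, Hadha and Hadhb). All 10 passed the filter on low counts and were among the 12496 genes tested. Lung RNA was sequenced by Quant-seq, which reads the 3′ end of polyadenylated transcripts, in 1 library from each of 7 mice in normoxia (21% O2) and 6 mice in hyperoxia (80% O2) after 5 days. All mice were wild-type C57BL/6J males, bought at 7 weeks of age, and in both groups the lungs were perfused with cold buffer before freezing. The samples are labelled as separate samples, and p-values measure the spread between them. In whole lung, fewer cells of a type and less RNA per cell cannot be told apart.

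Long-chain fatty acids enter mitochondria as carnitine esters, made by CPT1 on the outer membrane and turned back into acyl-CoA by CPT2 on the inner membrane. Acyl-CoA dehydrogenases of different chain-length preference then take the first step of each turn of β-oxidation, and the trifunctional protein, built from HADHA and HADHB, takes the remaining steps for long chains. PGC-1α and PGC-1β, the products of Ppargc1a and Ppargc1b, are coactivators of nuclear receptors, among them PPARα, and are known for raising genes of mitochondrial biogenesis and fatty acid oxidation. In the lung, alveolar type 2 cells also use fatty acids to make the lipids of surfactant.

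Among the 10 genes, 3 were higher in hyperoxia and none was lower in the quasi-likelihood test of edgeR (adjusted p under 0.05 over all 12496 genes), and none was lower at an unadjusted p under 0.05 either. The higher ones were Ppargc1a, Acadl, which encodes the long-chain acyl-CoA dehydrogenase, and Hadha, which encodes the α subunit of the trifunctional protein. Of all genes tested 22.6% passed, with 11.8% higher and 10.8% lower, so that 3 calls among 10 genes stand close to that share. The calls fell on 1 of the 3 regulators and 2 of the 7 enzymes.

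Promoter windows are shown for the 3 genes that were called and for Hadhb, because Hadha and Hadhb lie head to head and share most of their windows. Each window holds 250 bases before and 50 bases after the start of the gene in RefSeq on GRCm38.p6, 5′ to 3′ on the strand of the gene. Hadha (minus strand) and Hadhb (plus strand) take chr5:30154931-30155230 and chr5:30155003-30155302, and capitals mark the 228 bases that the windows have in common, which run in opposite directions in them.
Hadha: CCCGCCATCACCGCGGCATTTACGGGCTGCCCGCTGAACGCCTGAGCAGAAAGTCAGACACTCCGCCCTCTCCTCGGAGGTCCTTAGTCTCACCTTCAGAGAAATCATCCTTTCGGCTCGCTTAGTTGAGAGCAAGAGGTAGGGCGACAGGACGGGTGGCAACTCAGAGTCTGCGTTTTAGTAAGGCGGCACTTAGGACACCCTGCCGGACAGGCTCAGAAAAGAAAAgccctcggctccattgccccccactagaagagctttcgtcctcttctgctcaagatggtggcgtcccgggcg
Hadhb: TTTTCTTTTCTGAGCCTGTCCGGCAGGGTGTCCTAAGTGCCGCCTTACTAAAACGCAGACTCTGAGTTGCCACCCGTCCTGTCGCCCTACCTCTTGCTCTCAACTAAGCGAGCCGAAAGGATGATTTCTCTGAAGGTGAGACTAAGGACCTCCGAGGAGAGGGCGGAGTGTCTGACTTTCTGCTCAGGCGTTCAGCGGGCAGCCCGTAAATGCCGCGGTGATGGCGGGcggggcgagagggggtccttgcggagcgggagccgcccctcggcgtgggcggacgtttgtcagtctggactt
Ppargc1a (minus strand) takes chr5:51567676-51567975 and Acadl (minus strand) takes chr1:66863260-66863559, and there capitals mark the 50 bases from the annotated start onward.
Ppargc1a: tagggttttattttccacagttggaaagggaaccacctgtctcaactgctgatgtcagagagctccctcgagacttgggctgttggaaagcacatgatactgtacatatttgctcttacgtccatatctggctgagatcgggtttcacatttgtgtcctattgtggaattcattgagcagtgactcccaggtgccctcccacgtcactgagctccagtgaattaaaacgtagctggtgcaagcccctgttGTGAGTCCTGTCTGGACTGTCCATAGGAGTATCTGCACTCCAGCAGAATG
Acadl: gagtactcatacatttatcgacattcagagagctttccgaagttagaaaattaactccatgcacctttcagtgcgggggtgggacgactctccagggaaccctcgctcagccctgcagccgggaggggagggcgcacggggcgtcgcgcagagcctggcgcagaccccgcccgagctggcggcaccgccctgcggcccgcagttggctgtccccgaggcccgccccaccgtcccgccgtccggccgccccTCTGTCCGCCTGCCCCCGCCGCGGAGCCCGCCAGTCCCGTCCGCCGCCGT

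A window was found for 9 of the 10 genes, all but Ppargc1b. Exact matches on either strand were sought for 4 elements that regulators of this pathway are known to bind. The estrogen-related receptor element TCAAGGTCA and the cyclic AMP response element TGACGTCA were in 0 of the 9 windows, against 0.423% and 1.79% of all 32851 windows. The direct repeat of AGGTCA with 1 base between, which PPAR binds with RXR, was also in 0 of the 9, against 0.0396% of all windows. The NRF1 element was in 1, that of Ppara, against 0.971% of all windows. At shares this low, few sets of 9 windows would hold a match, so nothing can be read from the counts of 0. The Ppargc1a window had the lowest GC content of the 9, at 48.7%, and the Acadl window had 70.3%, with a median of 52.7% over all windows.

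The libraries held between 1607111 and 4540288 counts. A count of 3, taken as the floor, stands for 0.656 to 1.84 CPM, the count scaled to the total of its library, and floors cover counting error only, since the tables carry no molecular identifiers. Levels are given as CPM after TMM scaling. Ratios and sums of genes are set side by side between the groups and do not rank the genes by level. One library, hyperoxia replicate 1, stood apart, with correlations of log2 CPM to the others between 0.721 and 0.833 against 0.854 to 0.967 among the rest. At the lowest depth it would show 13447 gene symbols, against 14495 to 15462 in the other 12 libraries. Without it, 28.5% of the 12752 genes then tested were called, and the same 3 of the 10 genes passed.

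**Figure D1:**
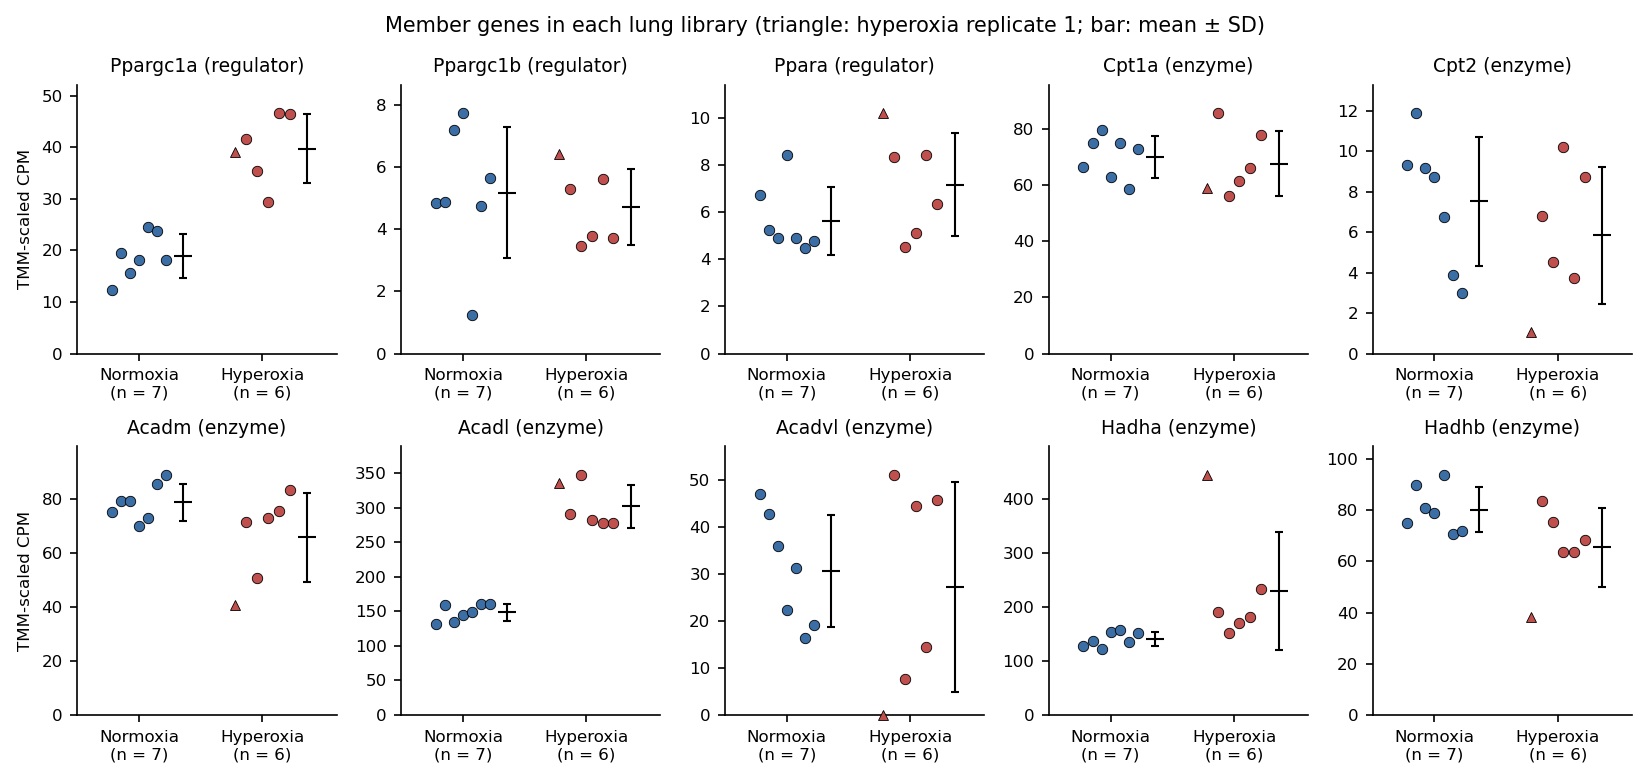
TMM-scaled CPM of the 10 genes in each of 7 normoxic (blue) and 6 hyperoxic (red) libraries, with the mean ± SD as a bar and hyperoxia replicate 1 as a triangle. Only in Ppargc1a and Acadl do all hyperoxic libraries lie above all normoxic ones, and in Acadvl and Cpt2 both groups are widely spread.

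Ppargc1a was the regulator that rose. The gene covers positions 51454250 to 51567726 of chromosome 5 in GRCm38. Its lowest, median and highest normoxic libraries stood at 12.3, 18.2 and 24.5 CPM, and its lowest, median and highest hyperoxic libraries at 29.3, 40.4 and 46.6 CPM. All hyperoxic libraries lay above all normoxic ones, which was so, or the reverse, for 10.8% of all genes tested. The mean went from 18.9 ± 4.27 CPM (n = 7, SD) to 39.7 ± 6.64 CPM (n = 6, SD), a log2 fold change of 1.08 (SE 0.18, 95% confidence interval 0.69 to 1.46, edgeR adjusted p = 5.6e-04). Hyperoxia replicate 1, at 39.1 CPM, was in the middle of its group, and without it the log2 fold change was 1.10. The 4 annotated transcripts that overlap the gene share no exon base with it.

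Ppargc1b, the gene of the related coactivator PGC-1β, was close to the floor. It had at most 23 counts in a normoxic and 18 in a hyperoxic library. The lowest, median and highest libraries were at 1.23, 4.89 and 7.74 CPM in normoxia and at 3.47, 4.53 and 6.43 CPM in hyperoxia, and the groups overlapped. The lowest value was that of normoxia replicate 5, with 2 counts, under the floor of 3. The other 6 normoxic libraries lay at 4.74 to 7.74 CPM, above 3 of the 6 hyperoxic ones. The log2 fold change was −0.19 (SE 0.32, edgeR adjusted p = 0.724), with an interval from −0.86 to 0.49, and −0.30 without normoxia replicate 5 (edgeR adjusted p = 0.476). That interval does not reach the log2 fold change of Ppargc1a, and the difference between the genes was not tested. The log2 difference of Ppargc1a and Ppargc1b within a library ran from 1.06 to 3.73 in normoxia and from 2.49 to 3.42 in hyperoxia, and these ranges overlap through normoxia replicate 5 alone. In the other 6 normoxic libraries it was 1.06 to 2.17, below all hyperoxic ones.

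Ppara encodes the fatty acid-sensing nuclear receptor PPARα. It lies on chromosome 15 from 85734983 to 85802819 and had between 8 and 29 counts in a library. Its lowest, median and highest libraries stood at 4.46, 4.91 and 8.41 CPM in normoxia and 4.52, 7.33 and 10.2 CPM in hyperoxia. The groups overlapped over most of their range. A log2 fold change of 0.33 (SE 0.26, interval −0.23 to 0.88) did not pass the test (edgeR adjusted p = 0.413), and it was 0.23 without hyperoxia replicate 1. A doubling lies outside the intervals of both Ppara and Ppargc1b.

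The carnitine shuttle did not pass the test at either membrane. Cpt1a, the CPT1 isoform found in most tissues other than muscle, lies on chromosome 19 from 3322334 to 3385733. It stood at a lowest, median and highest of 58.5, 72.6 and 79.5 CPM in normoxia and 55.9, 63.7 and 85.4 CPM in hyperoxia. The hyperoxic libraries spread around the normoxic ones on both sides, with a log2 fold change of −0.05 (SE 0.14, interval −0.34 to 0.24, edgeR adjusted p = 0.838). Cpt2, on chromosome 4 from 107903981 to 107923610, was at 2.97, 8.75 and 11.9 CPM in normoxia and 1.07, 5.66 and 10.2 CPM in hyperoxia in the same order. Its libraries were spread widely in both groups, at 2 to 40 counts each. The log2 fold change of Cpt2 was −0.31 (SE 0.41, interval −1.18 to 0.56, edgeR adjusted p = 0.633), and −0.11 without hyperoxia replicate 1.

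Among the acyl-CoA dehydrogenases, Acadl rose, whereas Acadm and Acadvl did not pass the test. Acadl lies on chromosome 1 from 66830839 to 66863277, on the minus strand. Its lowest, median and highest libraries were at 131, 149 and 160.3 CPM in normoxia and at 277, 286 and 347 CPM in hyperoxia. The groups were far apart, and the normoxic libraries were close together. The mean went from 149 ± 12.1 CPM (n = 7, SD) to 302 ± 31.6 CPM (n = 6, SD), a log2 fold change of 1.02 (SE 0.12, interval 0.78 to 1.26, edgeR adjusted p = 1.7e-05). Without hyperoxia replicate 1 it was 1.00. A processed pseudogene and a small nuclear RNA lie within Acadl and share no exon base with it.

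Acadm, which encodes the medium-chain enzyme, lies on chromosome 3 from 153922357 to 153944632. It was at a lowest, median and highest of 70.0, 79.1 and 88.9 CPM in normoxia and 40.7, 72.2 and 83.3 CPM in hyperoxia. Hyperoxia replicates 1 and 3, at 40.7 and 50.7 CPM, lay below every normoxic library, and the other 4 lay within the normoxic range. The log2 fold change was −0.25 (SE 0.16, interval −0.60 to 0.09, edgeR adjusted p = 0.285), and −0.14 without hyperoxia replicate 1. Within a library Acadl was 1.70 to 2.08 times Acadm in normoxia and 3.33 to 8.25 times in hyperoxia, up to 6.85 times without hyperoxia replicate 1. These ranges do not overlap, with or without that library.

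Acadvl encodes the very-long-chain enzyme of the inner membrane and was the most uneven of the 10 genes across libraries. Its lowest, median and highest libraries were at 16.4, 31.2 and 47.0 CPM in normoxia and at 0, 29.4 and 51.0 CPM in hyperoxia. Hyperoxia replicate 1 had 0 counts, where 3 counts would be 1.61 CPM, and hyperoxia replicates 3 and 5 stood at 7.64 and 14.4 CPM. The other 3 hyperoxic libraries, at 44.4 to 51.0 CPM, lay above 6 of the 7 normoxic libraries. The log2 fold change was −0.15 (SE 0.56, interval −1.33 to 1.04, edgeR adjusted p = 0.883), and 0.11 without hyperoxia replicate 1. Acadvl, on chromosome 11 from 70010183 to 70015411 on the minus strand, overlaps the 3′ part of Dvl2 on the opposite strand by 2119 bases, of which 1151 are exonic in both. Whether strand was used in counting is not given, and reads of this stretch could have gone to either gene. Dvl2 itself was highest in hyperoxia replicate 1, at 194 CPM, the library in which Acadvl had no count. The mean of Dvl2 was 81.7 ± 9.19 CPM (n = 7, SD) against 106 ± 45.2 CPM (n = 6, SD) in hyperoxia, which did not pass the test (log2 fold change 0.37, edgeR adjusted p = 0.222). Without hyperoxia replicate 1 the hyperoxic mean of Dvl2 was 88.0 ± 15.4 CPM (n = 5, SD) and the log2 fold change 0.12.

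The subunits of the trifunctional protein differed in their calls. Hadha lies on chromosome 5 from 30118304 to 30155162 and Hadhb from 30155248 to 30184593 on the opposite strand, with 85 bases between their outermost starts in GENCODE. The RefSeq starts behind the windows shown above differ from these and have 272 bases between them. Hadha was at a lowest, median and highest of 122, 138 and 157 CPM in normoxia and 152, 187 and 445 CPM in hyperoxia. Hyperoxia replicate 3 lay within the normoxic range, and hyperoxia replicate 1 stood far above all other libraries. The mean went from 141 ± 13.6 CPM (n = 7, SD) to 229 ± 109 CPM (n = 6, SD), a log2 fold change of 0.70 (SE 0.22, interval 0.24 to 1.16, edgeR adjusted p = 0.0276). Without hyperoxia replicate 1 the hyperoxic mean was 186 ± 30.4 CPM (n = 5, SD) and the log2 fold change 0.42 (SE 0.12, edgeR adjusted p = 0.0158). The call was lost in 6 of 23 alternatives, with limma on the deposited log values (0.53, adjusted p = 0.0698), with the replicate number as a block (0.62, edgeR adjusted p = 0.123), in the libraries named B to M (0.98, edgeR adjusted p = 0.0905) or O to S alone (0.43, edgeR adjusted p = 0.0979), without normoxia replicate 1 (0.71, edgeR adjusted p = 0.0532) and without normoxia replicate 3 (0.70, edgeR adjusted p = 0.0539). Hadha shares 75 exonic bases at its 3′ end with Garem2, which had no count in any library under its older symbol.

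Hadhb, which encodes the β subunit with the thiolase activity, was at a lowest, median and highest of 70.5, 78.7 and 93.7 CPM in normoxia and 38.1, 66.0 and 83.5 CPM in hyperoxia. Hyperoxia replicate 1 was the lowest of all libraries here, as it was the highest in Hadha, and 4 of the 6 hyperoxic libraries lay below every normoxic one. The log2 fold change was −0.29 (SE 0.16, interval −0.63 to 0.05, edgeR adjusted p = 0.222), and −0.16 without that library. The ratio of Hadha to Hadhb within a library had a lowest, median and highest value of 1.51, 1.71 and 2.12 in normoxia and 2.01, 2.77 and 11.7 in hyperoxia. The groups overlapped by a small stretch, and without hyperoxia replicate 1 the highest hyperoxic ratio was 3.42. The difference between the subunits was not tested.

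**Figure D2:**
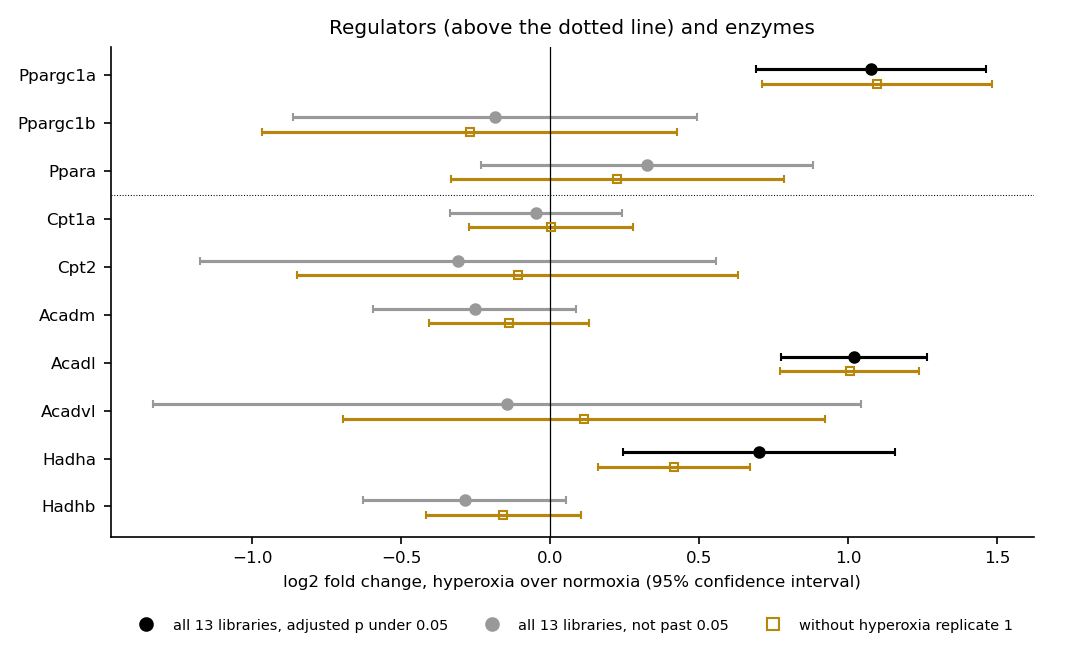
Log2 fold change of hyperoxia over normoxia with its 95% confidence interval for the 10 genes (filled: all 13 libraries, black where the adjusted p was under 0.05; open squares: without hyperoxia replicate 1). The intervals of Ppargc1a, Acadl and Hadha lie above 0 in both fits, and Hadha goes from 0.70 to 0.42 without that library.

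Set side by side, the 3 regulators had a median log2 fold change of 0.33 and the 7 enzymes of −0.15, against −0.03 over all genes tested. Without hyperoxia replicate 1 the medians were 0.23, 0.00 and −0.01. In the libraries named O to S alone the enzyme median was 0.43. Of the enzymes 2 were above 0 and 5 below, and of the regulators 2 were above 0 and 1 below. The sum of the 7 enzymes ran from 530 to 595 CPM in normoxia and from 683 to 920 CPM in hyperoxia, without overlap, and Acadl and Hadha were the enzymes that rose. The mean log2 CPM of the enzymes, in which each counts the same, ran from 5.60 to 6.08 in normoxia and from 4.85 to 6.22 in hyperoxia, so that the hyperoxic range covered the normoxic one. The log2 difference of Ppargc1a and that enzyme mean was −2.23 to −0.99 in normoxia and −1.19 to 0.46 in hyperoxia (up to −0.15 without hyperoxia replicate 1), with an overlap of the groups.

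Acadvl and Cpt2 were low in the same libraries. The 5 libraries with the lowest Acadvl, at no more than 19.0 CPM, were also the 5 with the lowest Cpt2, at no more than 4.52 CPM. They were hyperoxia replicates 1, 3 and 5 and normoxia replicates 6 and 7. In the other 8 libraries Acadvl was at least 22.2 CPM and Cpt2 at least 6.74 CPM. Both conditions are in each set of libraries, and the pair was chosen after the values were seen. The pattern was not particular to this pair. Outside the 10 genes, the same 5 libraries were the lowest in Acaa2, with up to 43.1 CPM against at least 58.4 CPM in the others. They were also the lowest in Dbi (up to 137 against at least 143 CPM) and Mlycd (up to 10.1 against at least 10.8 CPM).

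**Figure D3:**
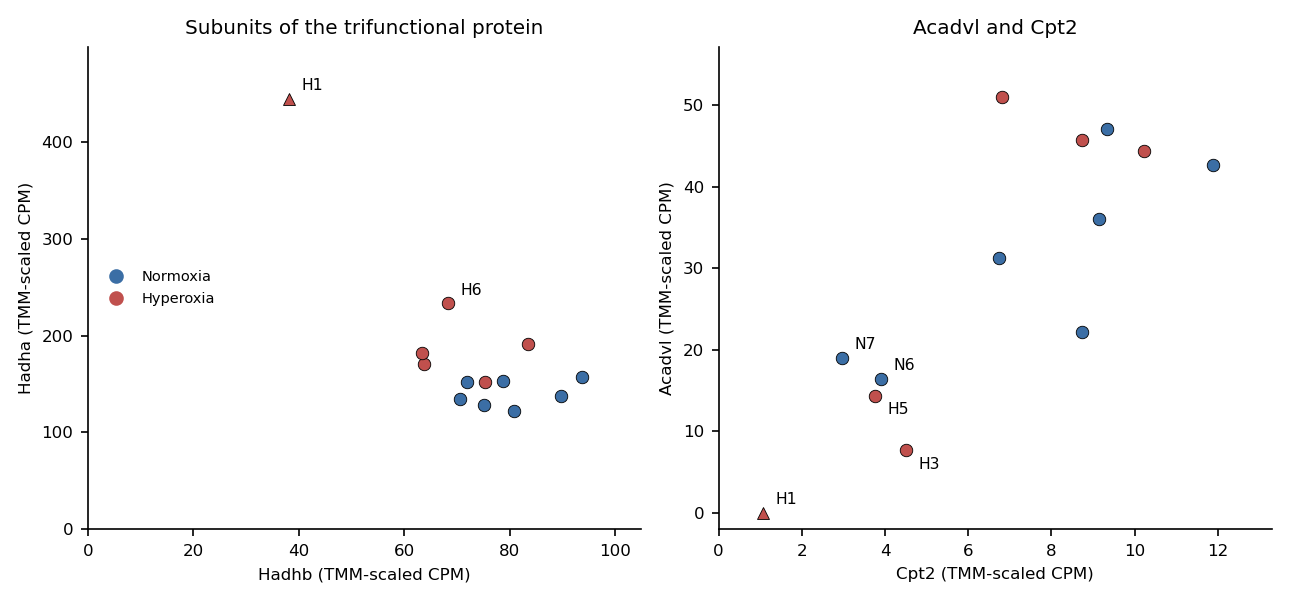
TMM-scaled CPM of Hadha against Hadhb (left) and of Acadvl against Cpt2 (right), 1 point for each of 7 normoxic (blue) and 6 hyperoxic (red) libraries, with hyperoxia replicate 1 as a triangle and some libraries named by N or H and their replicate number. Hyperoxia replicate 1 (H1) is highest in Hadha at 445 CPM and lowest in Hadhb at 38.1 CPM, and H1, H3, H5, N6 and N7 lie together at the low end of Acadvl and Cpt2.

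The names of the libraries fall into 2 runs of letters, B to M with 5 normoxic and 3 hyperoxic libraries and O to S with 2 normoxic and 3 hyperoxic ones. The labels do not say what the letters stand for. The differences in mean log2 CPM within the runs (prior count 2) were 1.10 and 0.92 for Ppargc1a, 1.17 and 0.80 for Acadl and 0.75 and 0.43 for Hadha, in this order. Without hyperoxia replicate 1, which leaves 2 hyperoxic libraries in the first run, the first value was 1.10 for Ppargc1a, 1.14 for Acadl and 0.29 for Hadha. In Ppargc1a and Acadl the conditions did not overlap within either run. Hadha was at 122 to 157 CPM in normoxia and 152 to 445 CPM in hyperoxia in the first run, which overlap, and at 134 to 153 and 171 to 234 CPM in the second, which do not.
Cpt2 and Acadvl went opposite ways in the runs. The difference for Cpt2 was −1.25 within B to M and 0.91 within O to S, and that for Acadvl was −2.42 and 0.78. Without hyperoxia replicate 1, which had 2 counts of Cpt2 and 0 of Acadvl, the values within B to M were −0.64 for Cpt2 and −0.77 for Acadvl. In normoxia alone, Cpt2 stood at 6.74 to 11.9 CPM in the first run and 2.97 to 3.90 CPM in the second, and Acadvl at 22.2 to 47.0 and 16.4 to 19.0 CPM. The test of the interaction called 0 of 12496 genes with edgeR, with 1158 genes (9.27%) at an unadjusted p under 0.05. Cpt2 was among the latter (difference between the runs 2.24 on the log2 scale, unadjusted p = 0.00916, edgeR adjusted p = 0.538), and Acadvl was not (1.82, edgeR adjusted p = 0.582). Without hyperoxia replicate 2, 801 of 12711 genes passed the interaction, among them Cpt2 (2.68, edgeR adjusted p = 0.0490) and Acadvl (3.96, edgeR adjusted p = 0.0326).

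**Figure D4:**
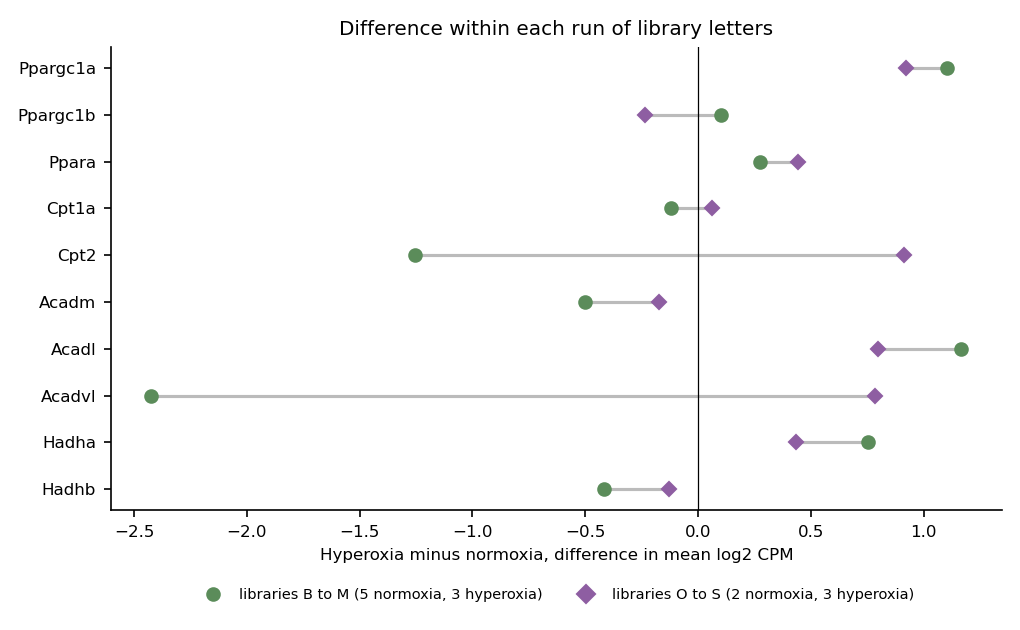
Difference in mean log2 CPM, hyperoxia minus normoxia, of the 10 genes within the libraries named B to M (circles) and O to S (diamonds). Both points lie near 1 for Ppargc1a (1.10 and 0.92) and Acadl (1.17 and 0.80), whereas those of Cpt2 and Acadvl lie on opposite sides of 0.

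Other genes of the pathway were read from 7 lists with 136 distinct genes, of which 115 were tested. In these, 15 rose and 8 fell past the same threshold, which is 20% of those tested, below the 22.6% of all genes. Their median log2 fold change was −0.01. With hyperoxia replicate 1 left out, 21 were higher and 12 lower of 118 tested, against 28.5% of all genes. The counts of the single lists below are to be read beside these shares.
In the list of mitochondrial β-oxidation and the carnitine shuttle, 2 of 22 genes were higher and 0 lower with edgeR (3 lower at an unadjusted p under 0.05, 2 with DESeq2 and 0 with limma-voom), with a median of −0.09. The counts were 3 higher and 1 lower without hyperoxia replicate 1. Acot2, a mitochondrial acyl-CoA thioesterase with the close paralog Acot1, between which reads could have been split, rose by 0.85 on the log2 scale (SE 0.16, edgeR adjusted p = 0.00107), without overlap, from 24.2 to 39.2 CPM in normoxia to 39.3 to 60.0 CPM in hyperoxia. Decr1, the 2,4-dienoyl-CoA reductase for unsaturated fatty acids, rose by 0.43 (SE 0.14, edgeR adjusted p = 0.0411), and was highest in hyperoxia replicate 1, at 103 CPM, without which it was 0.30 (edgeR adjusted p = 0.0401). Its call was lost in 9 of the 13 fits without 1 library, namely without any one normoxic library or without hyperoxia replicate 2 or 4 (edgeR adjusted p up to 0.0744), and in 8 of the 10 other alternatives (adjusted p up to 0.252), which leaves it called in DESeq2 and with the letter run as a term.
Peroxisomes shorten very long chains before mitochondria take over. In that list 2 of 16 genes were higher and 1 was lower, with a median of −0.26. Pex11a, which acts in peroxisome division, had a log2 fold change of 0.65 (edgeR adjusted p = 0.0389) and 0.41 without hyperoxia replicate 1 (edgeR adjusted p = 0.0473). The Pex11a call was lost in 7 of the 13 fits without 1 library, which left out normoxia replicate 1, 2, 3, 5, 6 or 7 or hyperoxia replicate 2 (edgeR adjusted p up to 0.0735). Scp2, a lipid transfer protein with a peroxisomal thiolase form, fell by 0.46 on the log2 scale (edgeR adjusted p = 0.00767), without overlap.

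The list of fatty acid uptake and activation also holds genes of lipid breakdown, namely Pnpla2, Lipe, Mgll and Abhd5. In this list 0 of 16 genes were higher with edgeR, DESeq2 or limma-voom (2 at an unadjusted p under 0.05) and 3 were lower, with a median of −0.18. Leaving out hyperoxia replicate 1 gave 1 higher and 5 lower with edgeR. Fabp5, a fatty acid-binding protein, went from 337 ± 24.6 CPM (n = 7, SD) to 173 ± 34.4 CPM (n = 6, SD), a log2 fold change of −0.97 (edgeR adjusted p = 1.6e-04), without overlap. Mgll, the monoacylglycerol lipase, had a log2 fold change of −0.71 (edgeR adjusted p = 0.0146), lost without normoxia replicate 5 or hyperoxia replicate 4 or 6 (edgeR adjusted p up to 0.0535). Cd36, a fatty acid translocase of capillaries and macrophages, had a log2 fold change of −0.62 (edgeR adjusted p = 0.0234), lost without normoxia replicate 4 or 5 or hyperoxia replicate 2, 4 or 6 (edgeR adjusted p up to 0.0667).
Malonyl-CoA inhibits CPT1, and 0 of the 8 genes tested that make, remove or control it passed with edgeR, with a median of −0.02 and log2 fold changes from −0.47 to 0.21. At an unadjusted p under 0.05 there was 1, which was lower, and 0 passed with DESeq2 and 1 with limma-voom.
Of the 24 partners and modifiers of PGC-1 and PPAR that were tested, 3 were higher and 1 was lower, with a median of 0.02. When hyperoxia replicate 1 was left out, 5 of 25 were higher and 1 was lower. Mybbp1a, a nucleolar protein known to repress PGC-1α, rose with a log2 fold change of 1.03 (edgeR adjusted p = 4.7e-04). Prmt1, an arginine methyltransferase that acts on PGC-1α, rose by 1.02 (edgeR adjusted p = 0.00767) and ran from 87.6 to 100.2 CPM in normoxia and from 102 to 334 CPM in hyperoxia. Pprc1, the PGC-1-related coactivator, rose by 0.83 (edgeR adjusted p = 0.0439) over a wide spread, from 6.97 to 33.4 CPM in hyperoxia. Its call was lost in 10 of the 13 fits without 1 library, held without normoxia replicate 5 or hyperoxia replicate 1 or 3 (edgeR adjusted p up to 0.0978), and the log2 fold change without hyperoxia replicate 1 was 1.03. Creb1, the cyclic AMP-responsive factor that can raise Ppargc1a, fell by 0.46 on the log2 scale (edgeR adjusted p = 0.00648), without overlap.

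The genes known to respond to PPAR had the largest changes of the 7 lists. Of 12 tested 5 were higher and 2 lower, with a median of 0.17. Angptl4, a secreted inhibitor of lipoprotein lipase, had a lowest, median and highest of 17.2, 45.9 and 55.9 CPM in normoxia and 151, 233 and 356 CPM in hyperoxia. The groups were far apart, with a log2 fold change of 2.61 (SE 0.29, edgeR adjusted p = 1.6e-05). Plin2, the coat protein of lipid droplets, was at 89.2, 121 and 139 CPM in normoxia and 268, 400 and 1170 CPM in hyperoxia. Its highest value was that of hyperoxia replicate 1, and its log2 fold change of 2.14 (SE 0.29, edgeR adjusted p = 8.2e-05) was 1.73 without that library.
Ucp2, a mitochondrial carrier, rose by 0.95 (edgeR adjusted p = 0.0151). Txnip, a glucose-responsive thioredoxin-binding protein, had a log2 fold change of −1.35 (edgeR adjusted p = 0.0194), without overlap. Fabp1, the liver-type fatty acid-binding protein, had 169 counts over the 7 normoxic libraries and 3 over the 6 hyperoxic ones, 5 of which were at 0. Its level was 52.7 times higher in normoxia (exact 95% counting interval 17.7 to 258, edgeR adjusted p = 2.4e-05). All 3 hyperoxic counts were in hyperoxia replicate 6. Without that library, and with the floor of 3 counts over the other 5, it was at least 39.9-fold higher. The fitted log2 fold change depends on the prior count and was −5.50, −7.65 without that library and −3.09 with limma on the deposited log values, past the threshold in all 22 alternatives.

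In the tricarboxylic acid cycle and pyruvate dehydrogenase, which take up the acetyl-CoA that β-oxidation makes, 4 of 19 genes were higher and 1 was lower, with a median of 0.24. In the fit without hyperoxia replicate 1, 6 were higher and 1 was lower. Over all genes tested 22.6% were called, and 28.5% in the fit without that library. Sucla2, a subunit of succinyl-CoA synthetase, rose by 0.56 (edgeR adjusted p = 0.00909). Idh3a, the catalytic subunit of the NAD-dependent isocitrate dehydrogenase, rose by 1.05 (edgeR adjusted p = 0.0240), with hyperoxia replicate 3 at 309.9 CPM, and by 0.59 without that library. The Idh3a call was lost with limma on the deposited log values (0.76, adjusted p = 0.0715), with the replicate block (0.78, edgeR adjusted p = 0.168) and in the libraries B to M alone (1.23, edgeR adjusted p = 0.120). Idh2, the NADP-dependent enzyme, fell by 0.83 on the log2 scale (edgeR adjusted p = 0.0226), without overlap. Sdha, the flavoprotein of succinate dehydrogenase, had a log2 fold change of 0.36 (edgeR adjusted p = 0.0424), lost in 7 of the 13 fits without 1 library (without normoxia replicate 1, 2, 4, 6 or 7 or hyperoxia replicate 3 or 6, edgeR adjusted p up to 0.0757). Dld, the dihydrolipoamide dehydrogenase, had a log2 fold change of 0.79 (edgeR adjusted p = 0.0496), which passed without hyperoxia replicate 1 and was lost without any one of the other 12 libraries (edgeR adjusted p up to 0.117), with 0.51 without hyperoxia replicate 3.
Of the other genes named from the lists, some also lost their call in the 10 alternatives that leave out no single library. These were other tools, scalings and filters, the replicate block, the letter run as a term and each run alone. Sdha and Dld lost it in 7 of them, Pex11a and Pprc1 in 6, Cd36, Scp2, Idh2 and Sucla2 in 3, Creb1, Prmt1 and Txnip in 2, and Acot2, Mgll and Ucp2 in 1. Fabp5, Mybbp1a, Angptl4 and Plin2 passed in all 23 alternatives.

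**Figure D5:**
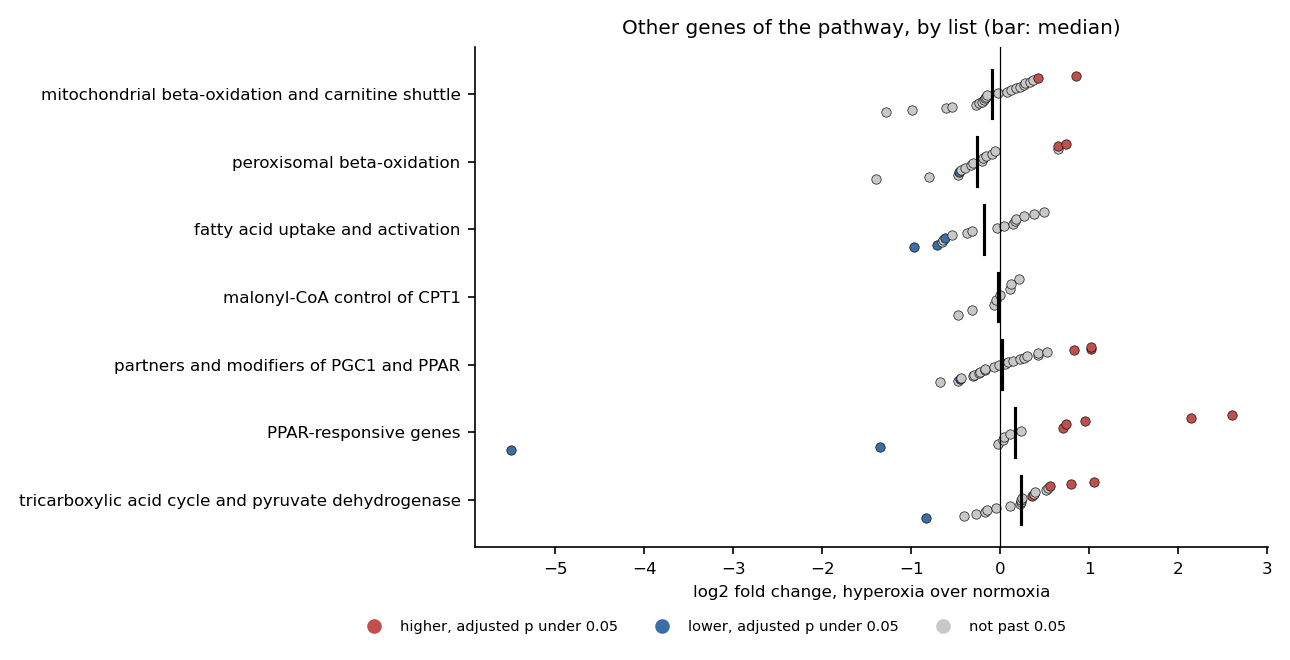
Log2 fold change of hyperoxia over normoxia for each tested gene of the 7 lists, 1 point a gene, red or blue where the adjusted p was under 0.05 and the gene was higher or lower, with the median as a bar. The medians lie between −0.26 and 0.24, and the widest spread is that of the PPAR-responsive genes, from −5.50 (Fabp1) to 2.61 (Angptl4).

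By their profile over the 13 libraries, the genes most like Ppargc1a were Zfp429, Rwdd4a and Pak1ip1. The root mean square difference of their centred log2 CPM from that of Ppargc1a was 0.24, 0.24 and 0.25, where the profile of Ppargc1a itself had a root mean square of 0.60. Since they were picked for likeness to a gene whose groups do not overlap, their own difference follows from the choice, and their log2 fold changes of 0.76, 0.81 and 0.92 are a description. Map4, Hibadh and Sirt2 were most like the mean profile of the 7 enzymes, with differences of 0.14, 0.15 and 0.15 against a root mean square of 0.35. None of these 3 passed the test, at log2 fold changes of −0.04, −0.05 and −0.11. Of the 29 genes examined one by one outside the 10, 9 share exon bases with a gene on the opposite strand and Hibadh holds a small nucleolar RNA on its own strand, so that their counts are uncertain to that extent. Among the 9 are Mgll, Pprc1, Mybbp1a, Txnip, Ucp2, Zfp429, Pak1ip1 and Sirt2.

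Some markers of lung cell types differed between the conditions as well, and their part in the results above was not tested. Of all genes tested 11.8% were higher and 10.8% lower, and 28.5% were called without hyperoxia replicate 1. The counts of the alveolar type 1, neutrophil and adipocyte lists stand close to the share over all genes. Of 10 alveolar type 2 markers 8 were lower, with a summed level of 15479 to 26927 CPM in normoxia and 4661 to 8646 CPM in hyperoxia. Of the capillary markers 1 of 10 was higher and 5 lower (2713 to 4930.5 against 955 to 4593 CPM), of the alveolar fibroblast markers 1 of 7 higher and 4 lower (1815 to 2260.1 against 1510.2 to 1973 CPM), and of the alveolar macrophage markers 1 of 10 higher and 4 lower (467 to 598 against 232 to 832 CPM). All 6 B cell markers were lower (235 to 281 against 45.9 to 79.7 CPM). Ciliated (4 of 8) and club cell markers (2 of 6) were lower as well, with 311 to 567 against 171 to 239.6 CPM and 15211 to 53956 against 609.6 to 10825 CPM. Of the alveolar type 1 markers 1 of 8 was higher and 1 lower (3910.2 to 4390.5 against 4859 to 5746 CPM), and of the neutrophil markers 1 of 5 higher (104 to 202 against 45.0 to 259 CPM). The higher sum of the type 1 markers came from Akap5. Its mean was 1194 ± 133 CPM (n = 7, SD) in normoxia and 2734 ± 359 CPM (n = 6, SD) in hyperoxia. Among the other 12 libraries, without hyperoxia replicate 1, 3 alveolar macrophage markers were higher and 3 lower, 6 ciliated and 4 club cell markers were lower, 1 fibroblast marker was higher and 5 were lower, and the counts of the other 8 marker lists were the same.
Markers of heart muscle, skeletal muscle and fat were followed too. Of the 10 for the cardiac muscle around pulmonary veins 6 were lower, with 107 to 329 CPM in normoxia and 6.97 to 347 CPM in hyperoxia. Of the adipocyte markers 1 of 6 was lower (50.3 to 173 against 40.0 to 114 CPM), with Elovl3 at 0 in all libraries. The 1 skeletal muscle marker tested was lower (3.73 to 12.8 against 1.61 to 10.003 CPM), with Myh4 at 0 in all. Of the markers of these 3 tissues 0 were higher with edgeR, and also 0 at an unadjusted p under 0.05.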

How the data were processed

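Lung RNA of 7 normoxic and 6 hyperoxic mice was measured by Quant-seq, and the sample titles gave the groups and their numbering. Reads were assigned to transcripts by the authors with kallisto, run through BioJupies, and the deposited counts are whole numbers per gene symbol with neither normalization nor a filter on low values. They also deposited log10 values, which equal log10 of CPM plus 1 computed from the counts to within 4.4e-16. The build is mm10 per the submitters' processing notes, which also name limma 3.54.2, and the annotation and the strand setting are not given in the sources used here. All pairs of libraries of a condition differed by more than sampling noise (chi-square per gene at least 3.95).

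Counts were tested with the quasi-likelihood test of edgeR 4.0.16 in R 4.3.3 over all 13 libraries, with TMM scaling, filterByExpr, no covariate and Benjamini-Hochberg adjustment over 12496 genes. A gene was called at an adjusted p under 0.05. A count of 3 was the floor. The interaction of condition with the run of library letters was tested in the same way. Coordinates are from GENCODE on GRCm38, and promoter windows from RefSeq on GRCm38.p6. The fits were tested on simulated counts. The Fabp1 ratio has an exact binomial interval at 95%, which covers counting error only.

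The members, the gene and marker lists and the motifs were chosen with earlier results of these data known. The genes named are the 10 members, every called gene of a pathway list with no more than 6 calls, otherwise the 3 largest and the 3 most negative log2 fold changes, and the 3 genes nearest in profile to Ppargc1a and to the enzyme mean. Some genes that this rule takes in are not reported here. Dvl2 and Garem2 are named for their overlap with members.

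The alternatives were DESeq2 1.42.0, limma-voom and limma on the deposited log values (limma 3.58.1), edgeR scaled by library size alone, genes with any count, genes with 10 or more counts in all libraries, a block for the replicate number, a term for the letter run, each run alone, and the omission of single libraries.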

Additional observations from a re-analysis of the deposited data

Results flagged for a closer look

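Libraries far from their group were sought in 38 results, each measured in 7 normoxic and 6 hyperoxic libraries, by the gap of the most extreme library to the nearest other one as a share of the range of its group (Dixon's ratio at 95%). Of 76 groups 8 held such a library, where chance gives about 1 in 20, or 3.8, and in 5 of the 8 it was hyperoxia replicate 1.

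Hyperoxia replicate 1 was far above its group in Hadha, at 445 CPM (ratio 0.721), and in the ratio of Hadha to Hadhb, at 11.7 (ratio 0.854). The same library was far above its group in Decr1, at 103 CPM (ratio 0.741), in Pex11a, at 116 CPM (ratio 0.645), and in Plin2, at 1170 CPM (ratio 0.743). Idh3a was far above its group in hyperoxia replicate 3, at 309.9 CPM (ratio 0.719). Fabp1 was at 0 in all hyperoxic libraries but replicate 6, which held 3 counts or 0.656 CPM (ratio 1). The total count of normoxia replicate 5, at 1607111, was far below those of the other normoxic libraries (ratio 0.612).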

How the results depend on the processing

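Over 226 recomputed values of the 10 members, 212 kept their direction and their side of the threshold, 6 lost the call, all of them Hadha, and 8 turned sign. Ppargc1a and Acadl were higher and past the threshold in all 23 alternatives each, between 0.95 and 1.17 and between 0.79 and 1.23 on the log2 scale. The regulators called stayed at 1 in all of them. The enzymes called went from 2 to 1, through Hadha, with limma on the deposited log values, with the replicate block (0.62, edgeR adjusted p = 0.123), within the libraries B to M (0.98, edgeR adjusted p = 0.0905) and within O to S (0.43, edgeR adjusted p = 0.0979), and were 1 to 2 with 1 library left out. The genes called in the pathway lists were 8 with the replicate block and 7 within B to M, against 23, and 17 to 33 with 1 library left out. The median of the regulators was 1.02 with at least 10 counts in every library, which left 1 regulator to test, and that of the enzymes was 0.43 within O to S. The number of members past the interaction was 0 to 2 with 1 library left out. Values that turned sign within O to S were Cpt1a 0.051, Cpt2 1.13, Acadvl 0.97, Map4 0.12, Hibadh 0.31 and Sirt2 0.37. With 1 library left out, Cpt1a ran from −0.10 to 0.025, Acadvl from −0.40 to 0.11, Map4 from −0.11 to 0.084, Hibadh from −0.14 to 0.12 and Sirt2 from −0.18 to 0.041. Of 665 values of the 29 other genes examined one by one, 528 kept direction and call, 127 lost the call and 10 turned sign. The causes were not tested.

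Replicates share only a number: of 6 pairs, 1 had a correlation of deviations over 0.1, between −0.33 and 0.27 in all. The replicate block gave 1344 calls over all genes and B to M alone 1120, against 2819. Limma on the deposited log values moved the median of all genes to −0.16 and library size alone to −0.10, and the share of higher genes among the calls was 38.8% and 42.7%, against 52.3%. Ppargc1b, Ppara and Cpt2 had at most 40 counts in a library, and Acadvl, with up to 209, had the largest standard error of the 10 genes (0.56). The shares of counting error and of the spread between libraries in these intervals were not told apart.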
